A study of Homo sapiens with 18 samples.

Results

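Posterior neural ectoderm made from human pluripotent stem cells was carried from day 2 to day 4 in either a forebrain or a hindbrain medium, and the 2 outcomes were compared gene by gene. The comparison used 4 of the 18 RNA-seq libraries of the study: 2 from cells in hindbrain medium (pNE_H) and 2 from cells in forebrain medium (pNE_T). All 4 came from the H1 line, an established wild-type human embryonic stem cell line, and the series describes the 2 libraries of each group as distinct biological replicates. The rule took the 14379 genes, of 37550 in the table, that had at least 1 TPM (a transcript level scaled to transcript length and to the library's total) in at least 2 of these 4 libraries. It used only the sample labels and this floor, and no difference between the media.

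All 4 cultures had the same first 2 days. Day 1 was definitive ectoderm medium with A8301, Trametinib, C59 and LDN193189. On day 2 the cells were replated at 150000 cells per cm2 in posterior medium, which held FGF2 at 20 ng/mL, TTNPB at 50 nM (a synthetic agonist of retinoic acid receptors), XAV939 at 1 µM (a tankyrase inhibitor that lowers WNT signalling), A8301 at 1 µM and LDN193189 at 100 nM (inhibitors of TGF-beta and BMP receptors), and Thiazovivin for survival. Per the labels' protocols, the day-3 forebrain medium held XAV939 at 1 µM, LDN193189 at 100 nM and FGF2 at 20 ng/mL. The composition of the hindbrain medium is not given in the sources used here. Cells at day 2 (pNE, 2 libraries, plated at 37500 cells per cm2) and cells of anterior origin in the same 2 media at day 4 (aNE_H and aNE_T, 2 libraries each, plated at 75000 cells per cm2) serve below as reference values. The anterior cells had C59 in place of TTNPB, FGF2 and XAV939 on day 2. Time, medium and plating density all changed between day 2 and day 4. Their parts in values set against day 2 cannot be told apart.

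The vertebrate hindbrain forms as a row of segments, the rhombomeres, whose identities are set by HOX genes of the anterior groups together with segment regulators such as EGR2. Retinoic acid, FGF and WNT signals from neighbouring tissues pattern this axis, and retinoic acid acts through nuclear receptors on HOX genes directly. The forebrain forms where WNT signalling is kept low and is marked by genes such as SIX3 and FEZF2. BMP and WNT signals at the dorsal edge of the neural tube induce MSX and PAX3 genes and, beside it, the neural crest.

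The 4 libraries had 13930 to 14310 genes at or above 1 TPM, and replicates resembled each other most (Pearson's r across genes, which are not independent, was 0.982 for both pairs and at most 0.958 with any library of another group). Mitochondrial genes took 2.31% and 3.04% of TPM in forebrain medium and 1.97% and 1.89% in hindbrain medium. Sequencing depth is unknown, since TPM does not record it. Differences are given on the log2(TPM + 1) scale, hindbrain minus forebrain medium, which understates the change of genes with low levels. A gene was called where limma's Benjamini-Hochberg adjusted p was under 0.05 and the absolute log2 difference was at least 1. By this rule 865 genes, 6.02% of those tested, were called: 286 (1.99%) were higher and 579 (4.03%) were lower in hindbrain medium. The median difference over all tested genes was -0.05. These shares and this median are the background for the counts and medians of the lists below. A floor on low values makes some calls easy: 86 of the 286 higher genes were under 1 TPM in both forebrain-medium libraries, and 108 of the 579 lower genes were under 1 TPM in both hindbrain-medium libraries. Where pairs of library values are set against each other, forebrain medium comes first. Genes are said to rise or fall by their level in hindbrain against forebrain medium at day 4, not against day 2. In bulk RNA, fewer cells of a type and less RNA per cell cannot be told apart.

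Cells in both media carried hindbrain markers, which bears on the labelled posterior origin and cannot check the labels of the media. The 7 hindbrain markers used here (HOXA2, HOXB1, HOXB2, HOXA3, HOXB4, EGR2 and GBX2) were all at or above 1 TPM in all 4 libraries, and summed to 402 and 409 TPM in forebrain medium and 738 and 593 TPM in hindbrain medium. In posterior cells in midbrain medium (pNE_M) they summed to 637 and 649 TPM, so the panel does not single out hindbrain medium. In cells of anterior origin they summed to 29.6 and 30.9 TPM in forebrain medium and 92.1 and 88.1 TPM in hindbrain medium. Forebrain markers were low in the medium labelled forebrain. The 6 used here (SIX3, SIX6, HESX1, RAX, FEZF1 and LHX2) summed to 42.6 and 46.8 TPM there, of which SIX3 made up 38 and 39.8 TPM, and to 14.8 and 15 TPM in hindbrain medium. In cells of anterior origin in the same forebrain medium they summed to 945 and 902 TPM. OTX2, which marks forebrain and midbrain, was at 28.3 and 26.6 TPM at day 2 and at 0.988 and 0.634 TPM in forebrain medium. It did not reach 1 TPM in 2 of the 4 libraries and was not tested.

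HOX genes did not move as a group. Of the 11 anterior HOX genes used here (groups 1 to 4), 9 were tested, 1 rose and 1 fell (11.1% each). Over all tested genes, 1.99% were higher and 4.03% lower. The list's median difference was -0.05, against -0.05 over all tested genes. HOXB1, the marker of rhombomere 4, was at 126 and 147 TPM in forebrain medium and 347 and 312 TPM in hindbrain medium, a difference of 1.27 ± 0.14 (SE; adjusted p = 1.67e-05). HOXD4 went the other way, from 16.7 and 6.97 TPM to 0.914 and 1.12 TPM, a difference of -2.56 ± 0.29 (SE; adjusted p = 2.27e-05). The groups did not overlap for either gene, although the forebrain-medium libraries differed from each other by more than a factor of 2 for HOXD4. HOXB3 was at 32.2 and 38.2 against 72.1 and 67.1 TPM, and its difference of 0.97 ± 0.15 lay just under the fold threshold, past which median-ratio scaling (1.03), quantile normalization (1.07) and leaving out the second library of either group (1.02 and 1.09) moved it.

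Other anterior HOX genes did not reach the fold threshold. HOXA3 was at 74.6 and 69.7 TPM in forebrain medium and 81.1 and 59.9 TPM in hindbrain medium, and HOXA2 at 13 and 14.9 against 15.2 and 16.4 TPM. The libraries of the 2 media overlapped for HOXA3 and not for HOXA2. HOXB2 was higher in hindbrain medium without passing the fold threshold, at 147 and 138 against 253 and 172 TPM (0.55 ± 0.16). Of the 15 trunk HOX genes (groups 5 to 9) only HOXA5 and HOXB5 passed the floor. HOXA5 was at 4.73 and 7.74 against 14.7 and 14.2 TPM, a difference of 1.13 ± 0.21 (SE; adjusted p = 0.0018), and this call was lost when the first forebrain-medium library was left out (0.82) and at a pseudocount of 0.1 (adjusted p = 0.0989). Of the 9 HOX cofactors of the MEIS, PBX and PKNOX families, 1 was called, lower (11.1%), against 4.03% lower over all tested genes. PKNOX2 was this gene, and fell from 22 and 18.8 TPM to 7.48 and 9.16 TPM. Another cofactor passed the floor through forebrain medium alone and was not called.

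Among the segmentation genes used here, only EGR2 was called higher and only NR2F1 lower. EGR2, the regulator of rhombomeres 3 and 5, was at 1.77 and 3.14 TPM in forebrain medium and 7.47 and 6.54 TPM in hindbrain medium, a difference of 1.24 ± 0.25 (SE; adjusted p = 0.00309). The EGR2 call was lost without the first forebrain-medium library (0.95) and at a pseudocount of 0.1 (adjusted p = 0.0556). NR2F1, an orphan nuclear receptor, fell from 57.7 and 64 TPM to 18.1 and 15 TPM, a difference of -1.82 ± 0.17 (SE; adjusted p = 4.02e-06), and had been near 0 at day 2. ZNF503 was at 79.2 and 88.5 against 186 and 152 TPM, and ZNF703 at 149.8 and 161 against 93.1 and 66.7 TPM. Their groups did not overlap, but differences of 0.999 and -0.97 fell just short of the threshold. Leaving out the second library of either medium called ZNF503 (1.14 and 1.08), and leaving out the first library of either called ZNF703 (-1.21 and -1.02). Over the 12 segmentation genes used here, 10 were tested, 1 rose and 1 fell (10% each), with a median of 0.31. Over all tested genes, 1.99% were higher and 4.03% lower. GBX2, which borders the midbrain territory, was at 172 and 216 TPM at day 2, 38.4 and 33.9 TPM in forebrain medium and 33.1 and 24.8 TPM in hindbrain medium, and was not called between the media (-0.32 ± 0.19).

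**Figure D1:**
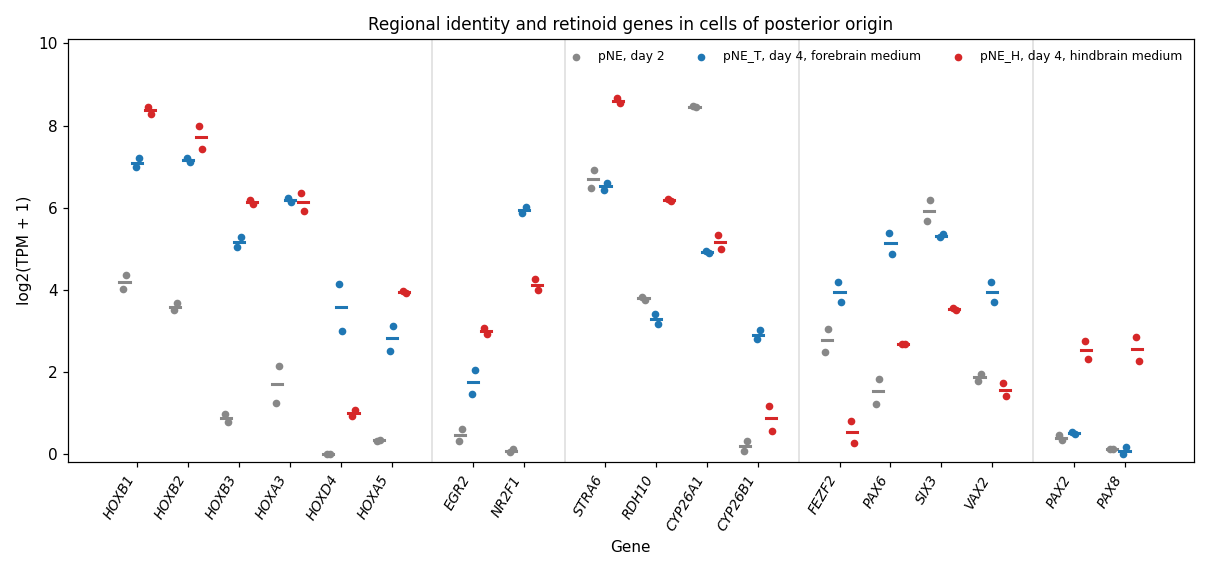
Level of regional identity and retinoid genes in each library, as log2(TPM + 1), for cells of posterior origin at day 2 (grey), in forebrain medium at day 4 (blue) and in hindbrain medium at day 4 (red). Points are libraries and short lines the mean of 2. The HOXA3 points of the 2 media overlap at day 4, whereas EGR2, STRA6 and RDH10 lie higher in hindbrain medium and FEZF2 and PAX6 lower.

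Genes of retinoid handling rose and fell within one pathway. STRA6, the membrane receptor that takes up retinol, was at 85.5 and 96.1 TPM in forebrain medium and 408 and 372 TPM in hindbrain medium, a difference of 2.09 ± 0.12 (SE; adjusted p = 5.64e-08). RDH10, the enzyme that makes retinaldehyde from retinol, rose from 9.64 and 7.98 TPM to 73.3 and 71 TPM, a difference of 2.90 ± 0.23 (SE; adjusted p = 1.05e-06). CYP26B1, an enzyme that clears retinoic acid, fell from 5.93 and 7.17 TPM to 1.26 and 0.485 TPM, a difference of -2.04 ± 0.22 (SE; adjusted p = 1.89e-05). These 3 genes were the only ones called among the 12 of 16 retinoid metabolism genes that were tested, and the list's median was 0.04. The list's called shares, 16.7% higher and 8.33% lower, stand beside 1.99% and 4.03% over all tested genes. CYP26A1, another clearing enzyme and a sensitive target of retinoic acid, was at 352 and 348 TPM at day 2, 29.8 and 28.7 TPM in forebrain medium and 39.5 and 31.1 TPM in hindbrain medium, and did not pass the test between the media. DHRS3 was at 119.7 and 138 against 106 and 107 TPM. Among the receptors, RARB was at 77.8 and 85.2 against 56.9 and 65.5 TPM, and of 9 tested genes of that list only NR2F1 was called, lower (11.1%).

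Of the 20 forebrain and eye field genes used here, 9 were tested. In hindbrain medium 5 (55.6%) fell and none rose, against 4.03% lower and 1.99% higher over all tested genes. The list's median was -1.49, and 3 of the 9 passed the floor through the forebrain-medium libraries alone. FEZF2, a regulator of forebrain and cortical neuron identity, was at 17.3 and 12.1 TPM in forebrain medium and 0.748 and 0.197 TPM in hindbrain medium, a difference of -3.42 ± 0.24 (SE; adjusted p = 3.84e-07). PAX6, which acts in eye, forebrain and also hindbrain and spinal progenitors, fell from 41 and 28.3 TPM to 5.39 and 5.39 TPM, a difference of -2.46 ± 0.21 (SE; adjusted p = 2.08e-06). At day 2 PAX6 had been at 1.34 and 2.54 TPM, under both media. SIX3 was at 38 and 39.8 against 10.8 and 10.4 TPM, a difference of -1.78 ± 0.15 (SE; adjusted p = 1.87e-06). SIX3 had been at 49.7 and 71.7 TPM at day 2, above both media. The ventral eye regulators VAX2 (17.3 and 12 against 2.32 and 1.65 TPM) and VAX1 (3.05 and 2.74 against 0.258 and 0.527 TPM) also fell, by 2.38 and 1.49 on the log2 scale.

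Only 5 of the 13 genes linked to the midbrain and its border with the hindbrain were tested; 3 rose and 1 fell, and 3 of the 5 passed the floor through hindbrain medium alone, so these counts describe no direction of the list. PAX2 was at 0.446 and 0.394 TPM in forebrain medium and 5.71 and 3.98 TPM in hindbrain medium (2.03 ± 0.18), and PAX8, its relative, at 0 and 0.124 against 6.25 and 3.84 TPM (2.48 ± 0.26). FGF18, a ligand of the border region, was at 0.808 and 0.860 against 2.71 and 2.70 TPM, at the fold threshold (1.02 ± 0.20) and under it without the first forebrain-medium library (0.996). FGF8, the organizer ligand of this border, was lower, at 1.19 and 1.71 against 0 and 0.240 TPM. The FGF8 call did not hold without any 1 of the 4 libraries (adjusted p of 0.0546 to 0.144). EN2, LMX1A and WNT1 stayed under 0.1 TPM in all 4 libraries. CDX2, a caudal regulator, rose from 0.274 and 1.12 TPM to 3.34 and 4.39 TPM (1.56 ± 0.25). It was the only rise (25%) among the 4 caudal progenitor genes tested of 12, beside 1 fall, FGF8 (25%). Over all tested genes, 1.99% were higher and 4.03% lower.

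Dorsal genes were called in both directions, and MSX1 rose most. MSX1, a homeobox gene of the dorsal neural tube and its border, was at 1.72 and 2.55 TPM in forebrain medium and 42.7 and 34.2 TPM in hindbrain medium, a difference of 3.66 ± 0.20 (SE; adjusted p = 5.15e-08). MSX2 was at 2.65 and 1.92 against 25.7 and 19.7 TPM, a difference of 2.85 ± 0.18 (SE; adjusted p = 1.15e-07). PAX3, a regulator of dorsal progenitors and neural crest, rose to a low level, from 0.708 and 0.470 TPM to 2.37 and 4.54 TPM. ZIC2, a zinc finger gene of the dorsal neural tube, fell from 169 and 169 TPM to 75.3 and 70 TPM (-1.21 ± 0.11) and ZIC5, the neighbour of ZIC2, from 16.6 and 17.4 TPM to 6.78 and 6.57 TPM (-1.23 ± 0.13). Of 7 dorsal genes tested of the 17 used here, 3 rose (42.9%) and 2 fell (28.6%), with a median of -0.30. Over all tested genes, 1.99% were higher and 4.03% lower. PAX3 passed the floor through hindbrain medium alone. On the ventral side, NKX6-1 was at 0.0741 and 0.241 against 4.63 and 2.98 TPM, the only call among 6 ventral genes tested of 15 (16.7%). NKX6-1 too passed the floor through hindbrain medium alone. Hedgehog response genes gave no call among 10 tested, and a list of this size would hold few calls at the shares over all tested genes. PTCH1 was at 53.9 and 55.6 against 47.8 and 50.6 TPM, and GLI1 at 3.37 and 6.59 against 5.84 and 5.99 TPM.

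Several neural crest genes rose while 2 defining ones stayed near 0. Of 12 tested of 15, 7 (58.3%) rose (MSX1, PAX3, SOX8, SOX9, SOX10, SNAI1 and TWIST1) and none fell. Over all tested genes, 1.99% were higher and 4.03% lower. The list's median was 1.41, and 3 of the 12 passed the floor through hindbrain medium alone. SOX10, a regulator of crest and glial cells, was at 0.394 and 0.809 TPM in forebrain medium and 16.2 and 12.7 TPM in hindbrain medium, a difference of 3.27 ± 0.21 (SE; adjusted p = 1.56e-07). SOX8, from the same family, was at 3.23 and 3.74 against 30.8 and 24.5 TPM, a difference of 2.67 ± 0.16 (SE; adjusted p = 8.02e-08). SOX9 was at 16.4 and 18.8 against 45.9 and 48.2 TPM (1.38 ± 0.11), SNAI1 at 4.72 and 3.30 against 14.6 and 12.9 TPM (1.57 ± 0.15), and TWIST1 at 1.31 and 1.64 against 7.70 and 6.04 TPM (1.66 ± 0.24). FOXD3, an early crest specifier, was at 0.0346 and 0 TPM in forebrain medium and 0.106 and 0 TPM in hindbrain medium, and TFAP2B was at 0.0147 and 0.0160 against 0.0794 and 0.155 TPM. The 5 crest markers SOX10, FOXD3, SNAI2, TFAP2B and PAX3 summed to 12.9 and 13.2 TPM against 32.8 and 34.2 TPM, and 1 of the 5 was at or above 1 TPM in each forebrain-medium library against 3 of 5 in each hindbrain-medium library. Their part in the dorsal and crest differences was not tested.

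Of 16 WNT feedback genes and targets, 11 were tested. In hindbrain medium 5 (45.5%) rose and 1 (9.09%) fell, against 1.99% and 4.03% over all tested genes. The list's median was 0.61, and 1 of the 11 passed the floor through hindbrain medium alone. LEF1, a transcription factor of the WNT pathway and its target, was at 3.32 and 4.95 TPM in forebrain medium and 26.7 and 24 TPM in hindbrain medium, a difference of 2.38 ± 0.21 (SE; adjusted p = 2.48e-06). AXIN2, the feedback inhibitor most used as a readout, was at 28 and 31.1 against 73.3 and 66.2 TPM, a difference of 1.21 ± 0.10 (SE; adjusted p = 1.11e-06). RNF43, a ligase that removes WNT receptors, was at 0.351 and 0.347 against 4.60 and 4.94 TPM, a difference of 2.10 ± 0.19 (SE; adjusted p = 3.45e-06). TNFRSF19 (5.78 and 8.47 against 35.9 and 35.4 TPM) and APCDD1 (1.27 and 1.73 against 4.46 and 4.14 TPM) rose too, and APCDD1 fell under the fold threshold without the first forebrain-medium library (0.96). BAMBI, a decoy receptor of the BMP and TGF-beta pathway that is also a WNT target, fell from 68.7 and 73.7 TPM to 33.1 and 28.5 TPM (-1.19 ± 0.13). At day 2 BAMBI had been at 5.48 and 6.26 TPM, under both media.

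Secreted WNT antagonists of one family moved apart. SFRP1 was at 334 and 371 TPM in forebrain medium and 135 and 150.1 TPM in hindbrain medium, a difference of -1.30 ± 0.07 (SE; adjusted p = 5.43e-08). SFRP2 fell from 170.4 and 147 TPM to 53.3 and 49 TPM, a difference of -1.61 ± 0.11 (SE; adjusted p = 2.40e-07). SFRP5 rose from 10 and 8.05 TPM to 108 and 90.4 TPM, a difference of 3.32 ± 0.20 (SE; adjusted p = 9.46e-08). No other of the 9 tested WNT ligands and antagonists was called, and 12 of the 21 did not pass the floor. The called shares were 11.1% higher and 22.2% lower, against 1.99% and 4.03% over all tested genes.

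A target, ligands and antagonists of the BMP pathway rose. Of 17 genes tested of 19, 5 (29.4%) rose and 1 (5.88%) fell (BAMBI), against 1.99% and 4.03% over all tested genes. The list's median was 0.29, and 1 of the 17 passed the floor through hindbrain medium alone. ID3, a direct target of BMP signalling, was at 232 and 217 TPM in forebrain medium and 1141 and 973 TPM in hindbrain medium, a difference of 2.23 ± 0.09 (SE; adjusted p = 5.87e-09). The related ID1 (181 and 202 against 368 and 274 TPM; 0.73 ± 0.18) did not reach the fold threshold, and ID2 overlapped between the media (58.2 and 42.1 against 49.3 and 57 TPM). The ligands BMP2 (22.3 and 21.9 against 59.9 and 59 TPM; 1.39 ± 0.12) and BMP5 (0.363 and 0.278 against 4.98 and 6.23 TPM; 2.32 ± 0.17) rose. So did 2 secreted BMP antagonists. NOG was at 4.65 and 5.97 against 37.5 and 26.2 TPM, a difference of 2.37 ± 0.19 (SE; adjusted p = 1.05e-06), and GREM1 at 14.6 and 14.1 against 96.7 and 109 TPM, a difference of 2.76 ± 0.09 (SE; adjusted p = 3.35e-10).

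Among FGF genes, 3 feedback genes were higher in hindbrain than in forebrain medium while 2 receptors were lower. SPRY4, an inhibitor induced by FGF signalling, was at 13 and 13.2 TPM in forebrain medium and 65.3 and 61.5 TPM in hindbrain medium, a difference of 2.19 ± 0.10 (SE; adjusted p = 1.19e-08). IL17RD, another such inhibitor, rose from 58 and 60.5 TPM to 189 and 183 TPM (1.63 ± 0.08), and ETV4, a transcription factor induced by the pathway, from 41.4 and 47.1 TPM to 117 and 106 TPM (1.31 ± 0.10). At day 2 SPRY4 had been at 77.5 and 86 TPM and ETV4 at 93.6 and 116 TPM. Against day 2, neither was called in hindbrain medium (-0.36 ± 0.10 and 0.09 ± 0.10). Both were called lower than at day 2 in forebrain medium (-2.55 ± 0.10 and -1.22 ± 0.10). IL17RD had been at 61.3 and 66.1 TPM at day 2, near its level in forebrain medium. IER3, an immediate early gene, fell from 24.6 and 26.1 TPM to 11.1 and 11 TPM. The other 15 of the 19 feedback genes were not called, and the list's median was 0.13. Its called shares, 15.8% higher and 5.26% lower, stand beside 1.99% and 4.03% over all tested genes. FGFR3 fell from 35.9 and 35.7 TPM to 7.89 and 10.8 TPM, a difference of -1.85 ± 0.18 (SE; adjusted p = 5.37e-06), FGFR2 from 40.7 and 42.2 TPM to 18 and 15.8 TPM (-1.25 ± 0.13), and FGF13, an intracellular member of the FGF family, from 90 and 95.5 TPM to 35.5 and 35.7 TPM (-1.36 ± 0.10). FGF8, described above, was the other of 4 lower genes (28.6%) among 14 tested FGF ligands and receptors, beside 1 higher (7.14%), FGF18.

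Of 17 Notch genes tested of 20, 6 (35.3%) fell and none rose in hindbrain medium, with a median of -0.25. Over all tested genes, 4.03% were lower and 1.99% higher, with a median of -0.05. NOTCH2, a receptor, was at 94.1 and 97 TPM in forebrain medium and 29.6 and 35.3 TPM in hindbrain medium, a difference of -1.53 ± 0.12 (SE; adjusted p = 1.23e-06). DTX4, a ligase that regulates Notch, fell from 103 and 111 TPM to 25.3 and 30.9 TPM (-1.89 ± 0.15), the ligand DLL1 from 7.58 and 5.71 TPM to 0.776 and 1.22 TPM (-1.93 ± 0.35), and the target HES4 from 27.7 and 19.8 TPM to 7.53 and 6.08 TPM (-1.65 ± 0.28). The groups did not overlap for any of these 4 genes. At day 2 HES4 had been at 2.95 and 4.50 TPM, under both media, and NOTCH2 at 46.7 and 54.6 TPM, between them. DLL1 had been at 1.16 and 1.93 TPM, near its level in hindbrain medium, and DTX4 at 106 and 141 TPM, above that level.

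Of 15 pan-neural progenitor genes tested of 17, 8 (53.3%) fell and 1 (6.67%) rose, against 4.03% and 1.99% over all tested genes. The list's median was -1.09, and 1 of the 15 passed the floor through forebrain medium alone. SOX2, the core regulator of neural progenitors, was at 239 and 234 TPM in forebrain medium and 101 and 87 TPM in hindbrain medium, a difference of -1.33 ± 0.11 (SE; adjusted p = 1.84e-06). SOX3, its close relative, was at 40.2 and 33.4 against 5.87 and 3.85 TPM, a difference of -2.71 ± 0.19 (SE; adjusted p = 3.73e-07). SOX21 showed the largest fall of the list, from 46.7 and 42.5 TPM to 3.62 and 3.02 TPM, a difference of -3.40 ± 0.20 (SE; adjusted p = 6.86e-08). POU3F1 (46.4 and 54.8 against 11.7 and 9.22 TPM), the intermediate filament gene NES (608 and 649 against 293 and 279 TPM) and the neural cadherin CDH2 (191 and 186 against 77.3 and 93.3 TPM) fell as well, beside PAX6. At day 2 NES had been at 274 and 346 TPM and CDH2 at 95.3 and 96.6 TPM. Against day 2, neither was called in hindbrain medium (-0.11 ± 0.09 and -0.17 ± 0.10). SOX2, SOX3, SOX21 and POU3F1 were called lower there than at day 2 (-1.05, -4.21, -3.92 and -2.68). SOX1 fell within the range near 1 TPM (1.75 and 1.02 against 0.0851 and 0.131 TPM), and its call was lost without the first forebrain-medium library (-0.87), under quantile normalization (-0.90) and in a fit of only these 4 libraries (adjusted p = 0.0796). FABP7, a lipid binding protein of radial glia, was the rise, at 5.79 and 5.07 against 18.8 and 23.1 TPM (1.77 ± 0.19). At day 2 FABP7 had been at 23.8 and 19.7 TPM. The neural progenitor markers SOX1, SOX2, SOX3, NES, CDH2 and PAX6 summed to 1121 and 1131 TPM in forebrain medium and 482 and 468 TPM in hindbrain medium. Neuronal differentiation genes were mostly unexpressed: 8 of 30 were tested and none was called. The 5 neuron markers summed to between 0.7 and 2.2 TPM in all 4 libraries.

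**Figure D2:**
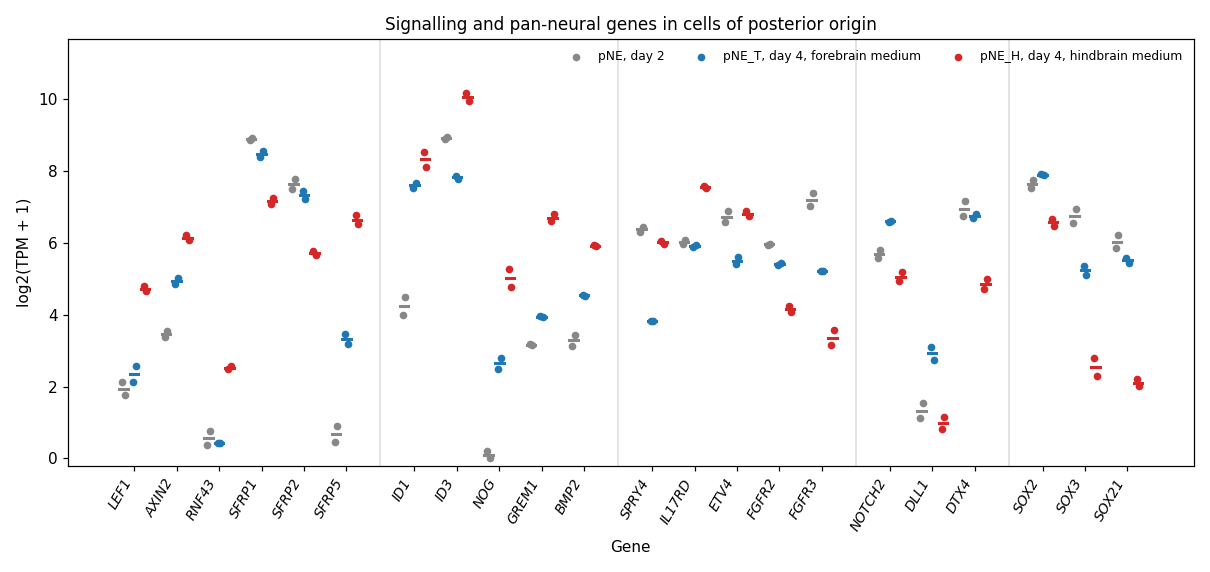
Level of signalling and pan-neural genes in each library, as log2(TPM + 1), at day 2 (grey), in forebrain medium (blue) and in hindbrain medium (red). Points are libraries and short lines the mean of 2. Groups from left to right are WNT, BMP, FGF, Notch and pan-neural genes. LEF1, ID3, NOG and SPRY4 lie higher in hindbrain medium, and FGFR3, DTX4 and SOX21 lower.

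The largest fall of all was in a muscle actin gene, and other genes of the contractile apparatus fell with it. ACTA1, skeletal muscle alpha-actin, was at 342 and 355 TPM in forebrain medium and 13.4 and 12 TPM in hindbrain medium, a difference of -4.67 ± 0.11 (SE; adjusted p = 2.16e-11). At day 2 it had been at 11.2 and 11.7 TPM, so the hindbrain-medium libraries lay at the day-2 level and the forebrain-medium libraries far above it. A list of 34 actin and contractile genes was assembled after ACTA1 had been seen to fall, so its counts are not independent evidence. Of 33 tested, 16 (48.5%) fell and none rose, against 4.03% lower over all tested genes, with a median of -0.98. TAGLN, an actin-binding protein of smooth muscle, was at 2300.5 and 2158 against 568 and 654 TPM, a difference of -1.87 ± 0.08 (SE; adjusted p = 6.59e-09). TPM1, tropomyosin, was at 1886 and 1964 against 449 and 496 TPM, a difference of -2.03 ± 0.06 (SE; adjusted p = 1.84e-10). CNN1, calponin, was at 298 and 258 against 57.9 and 65.2 TPM, a difference of -2.15 ± 0.12 (SE; adjusted p = 5.15e-08). ACTA2, smooth muscle actin (365 and 381 against 101 and 108 TPM), ACTC1, cardiac actin (213 and 196 against 78.6 and 83.1 TPM), and MYL9, a myosin light chain (994 and 1151 against 337 and 361 TPM), showed differences of -1.82, -1.33 and -1.61. At day 2 ACTC1 had been at 5.35 and 7.34 TPM, under both media. MYOCD, a coactivator of smooth muscle genes, fell from 10.5 and 10.8 TPM to 0.983 and 1.84 TPM. ACTB, cytoplasmic actin, was at 6162 and 6616 against 3033 and 3102 TPM (-1.06 ± 0.07) and fell just under the fold threshold with median-ratio scaling (-0.996).

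A second list, chosen in the same way, held 22 genes commonly used as readouts of YAP and TEAD. These 2 partner regulators respond to cell tension and density. Of 20 members tested, 11 (55%) fell and none rose, against 4.03% lower over all tested genes, with a median of -1.05. CCN1, a secreted matrix-associated protein, was at 191 and 189.9 against 20.2 and 29.7 TPM, a difference of -2.91 ± 0.14 (SE; adjusted p = 1.19e-08). CCN2, its relative, was at 411 and 409.8 against 65 and 84.8 TPM, a difference of -2.45 ± 0.10 (SE; adjusted p = 4.37e-09). IGFBP3, a carrier of insulin-like growth factors, was at 181 and 178 against 16.5 and 19.6 TPM, a difference of -3.24 ± 0.11 (SE; adjusted p = 9.43e-10). ANKRD1 (375 and 359 against 74.1 and 127 TPM; -1.91 ± 0.21) and the membrane repair gene MYOF (60.5 and 55.9 against 13.8 and 13.2 TPM; -2.03 ± 0.16) fell too. At day 2 ANKRD1 had been at 15.1 and 13 TPM, under both media. The media had equal plating densities, unlike the day-2 cells, and cell density at collection is not given in the sources used here.

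The sequences before 3 of these genes are shown because the genes fell together and hold motifs that are named for factors of muscle actin and of YAP-TEAD target genes. They are RefSeq promoter sequence of GRCh38.p14, the 200 bases before the gene's start, 5′ to 3′ on the gene's strand, which is the minus strand for all 3. Capitals mark a CArG box, the motif of serum response factor, in ACTA1 (chr1:229434095-229434294) and ACTC1 (chr15:34795550-34795749), and each GGAATG, the letters of a TEAD motif, in CCN2 (chr6:131951373-131951572).
ACTA1: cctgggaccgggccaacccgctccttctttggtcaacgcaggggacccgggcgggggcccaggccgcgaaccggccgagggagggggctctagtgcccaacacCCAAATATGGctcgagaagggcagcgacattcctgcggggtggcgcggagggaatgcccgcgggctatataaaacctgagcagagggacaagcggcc
ACTC1: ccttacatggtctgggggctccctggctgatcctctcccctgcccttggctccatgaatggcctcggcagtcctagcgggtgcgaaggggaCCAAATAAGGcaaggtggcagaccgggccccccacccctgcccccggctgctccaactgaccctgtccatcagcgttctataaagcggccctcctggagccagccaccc
CCN2: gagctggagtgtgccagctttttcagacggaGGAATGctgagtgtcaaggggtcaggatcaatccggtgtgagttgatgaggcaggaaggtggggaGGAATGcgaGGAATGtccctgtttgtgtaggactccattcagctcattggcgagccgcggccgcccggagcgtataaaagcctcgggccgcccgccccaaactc
The last base of the CArG box lies 88 bases before the start of ACTA1 and 100 bases before that of ACTC1, and CCN2 holds 3 copies of GGAATG. Both motifs were searched on both strands of windows from 250 bases before to 50 after the start. A CArG box was in 1.29% of 35116 such windows of all genes, and in windows of 6 of the 12 lower contractile genes that have one in the table, against 6 of 17 contractile genes that were tested and not called. GGAATG was in 14% of all windows, in those of 7 of the 9 lower YAP-TEAD list genes with a window and in 1 of 5 not called. It also occurred in 8 of the 12 lower contractile genes and in 6 of the 17 not called. Both lists were drawn up from contractile genes and YAP-TEAD readouts after values were seen. Shares above those of all windows could therefore come from the choice of genes alone. Whether the motifs bear on which genes were called was not tested. Such matches describe letters, not binding.

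**Figure D3:**
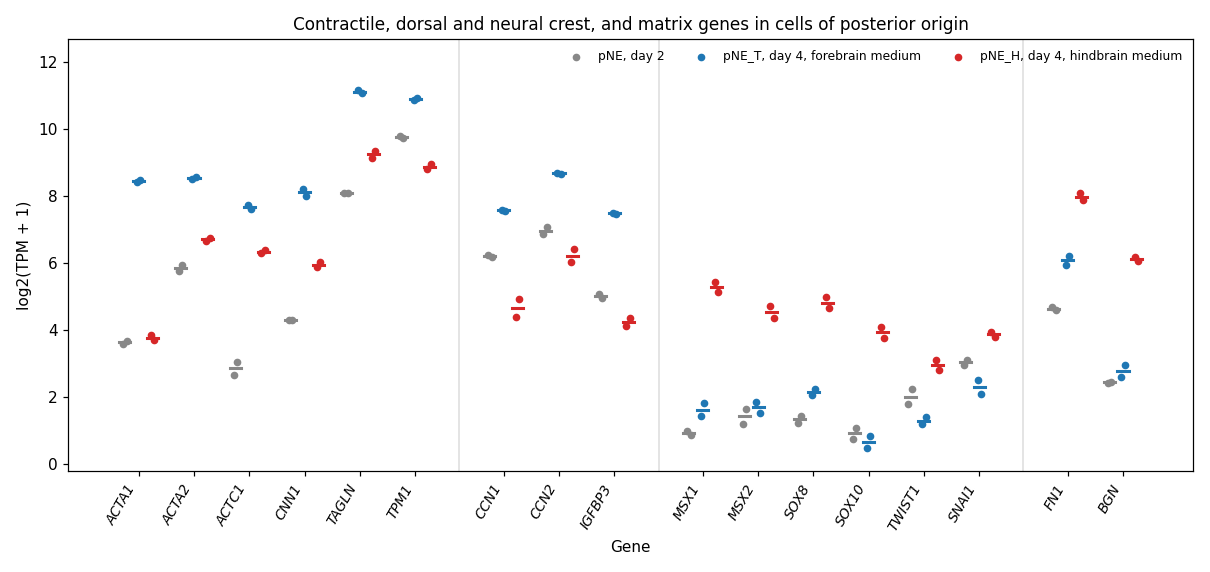
Level of contractile genes, YAP-TEAD list genes, dorsal and neural crest genes, and matrix genes in each library, as log2(TPM + 1), at day 2 (grey), in forebrain medium (blue) and in hindbrain medium (red). Points are libraries and short lines the mean of 2. ACTA1 lies at the day-2 level in hindbrain medium, and MSX1, SOX10 and BGN lie above both other groups.

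Among the 12 largest rises, several genes outside these lists were close to 0 in forebrain medium. PENK, the precursor of enkephalin peptides, was at 0.736 and 0.776 TPM in forebrain medium and 20.1 and 19.8 TPM in hindbrain medium, a difference of 3.58 ± 0.20 (SE; adjusted p = 5.43e-08). MAFA, a transcription factor of the MAF family, was at 0.562 and 1.00 against 20.6 and 14.3 TPM (3.36 ± 0.24). TMEM229A (0.508 and 0.778 against 17.9 and 15.4 TPM; 3.42 ± 0.22), C1QL4 (0.485 and 0.286 against 13.1 and 9.63 TPM; 3.15 ± 0.23) and SLC5A7, the choline transporter (0.425 and 0.488 against 11.7 and 10.3 TPM; 3.05 ± 0.18), followed the same pattern. BGN, the matrix proteoglycan biglycan, rose from 5.14 and 6.76 TPM to 72.4 and 66.7 TPM, a difference of 3.35 ± 0.19 (SE; adjusted p = 5.15e-08). SEZ6L (5.30 and 8.01 against 75 and 67.9 TPM; 3.26 ± 0.21) and FREM1, a basement membrane protein (3.68 and 3.90 against 42.5 and 36.3 TPM; 3.07 ± 0.28), were also among them. ZDHHC8BP, a pseudogene at 0.918 and 0.912 against 21.7 and 15.5 TPM (3.34 ± 0.22), overlaps a second one, CCDC188BP (0.0862 and 0.484 against 9.41 and 6.26 TPM). Both share sequence with their parent genes, so their values are uncertain. ZDHHC8 itself was at 20.3 and 27.4 against 17.8 and 15.4 TPM, and CCDC188 was listed at 0 in both forebrain-medium libraries and at 1.93 and 1.80 TPM in hindbrain medium.

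Of the 12 largest falls, those not yet named were GFRA1, CALB2, PROC, ADAMTSL4, HES3, TMEM114 and ADCY2. GFRA1, the receptor of the growth factor GDNF, was at 105 and 101 TPM in forebrain medium and 9.12 and 8.49 TPM in hindbrain medium, a difference of -3.40 ± 0.14 (SE; adjusted p = 4.37e-09). CALB2, the calcium-binding protein calretinin, was at 47.2 and 47.5 against 3.39 and 3.97 TPM, a difference of -3.37 ± 0.21 (SE; adjusted p = 1.23e-07). HES3, a repressor of the HES family that acts in the neural tube, was at 12.2 and 5.32 against 0 and 0.374 TPM, a difference of -2.96 ± 0.28 (SE; adjusted p = 5.73e-06). The forebrain-medium libraries differed by more than a factor of 2 for HES3 but did not overlap with the others. PROC, known as the precursor of protein C (34.7 and 46.7 against 3.81 and 2.99 TPM; -3.24 ± 0.27), ADAMTSL4 (30.2 and 36.4 against 3.83 and 2.39 TPM; -3.08 ± 0.21), the adenylate cyclase gene ADCY2 (46.4 and 50.3 against 7.22 and 4.16 TPM; -2.92 ± 0.22) and TMEM114 (18.4 and 21.2 against 3.17 and 0.777 TPM; -2.93 ± 0.34) fell without overlap.

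For lists of basic cell programs, the shares over all tested genes were 1.99% higher and 4.03% lower, and lists of this size would hold few calls at those shares. None of 25 cell cycle genes tested was called (median -0.17), with the proliferation marker MKI67 at 46.4 and 45.1 TPM in forebrain medium and 41.3 and 40.6 TPM in hindbrain medium. None of 22 cholesterol synthesis genes was called (median 0.09), with HMGCS1, an early enzyme of the pathway, at 344 and 430.2 against 380.3 and 432 TPM. Of 27 glycolysis and hypoxia response genes tested, PFKP, a phosphofructokinase, was the only call, lower in hindbrain medium (71 and 63.8 against 25.1 and 21.5 TPM; -1.49 ± 0.10). Of 27 extracellular matrix genes tested, only FN1, fibronectin, was called, higher in hindbrain medium (61.1 and 74 against 273 and 234 TPM; 1.90 ± 0.14). Of 19 stress and p53 target genes, GDF15 rose (7.17 and 5.33 against 18.4 and 17 TPM) and ATF3 fell (73.8 and 71.4 against 18.5 and 28.1 TPM). At day 2 GDF15 had been at 34.5 and 36.6 TPM, above both media. A p that misses the threshold does not show that these genes were equal.

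**Figure D4:**
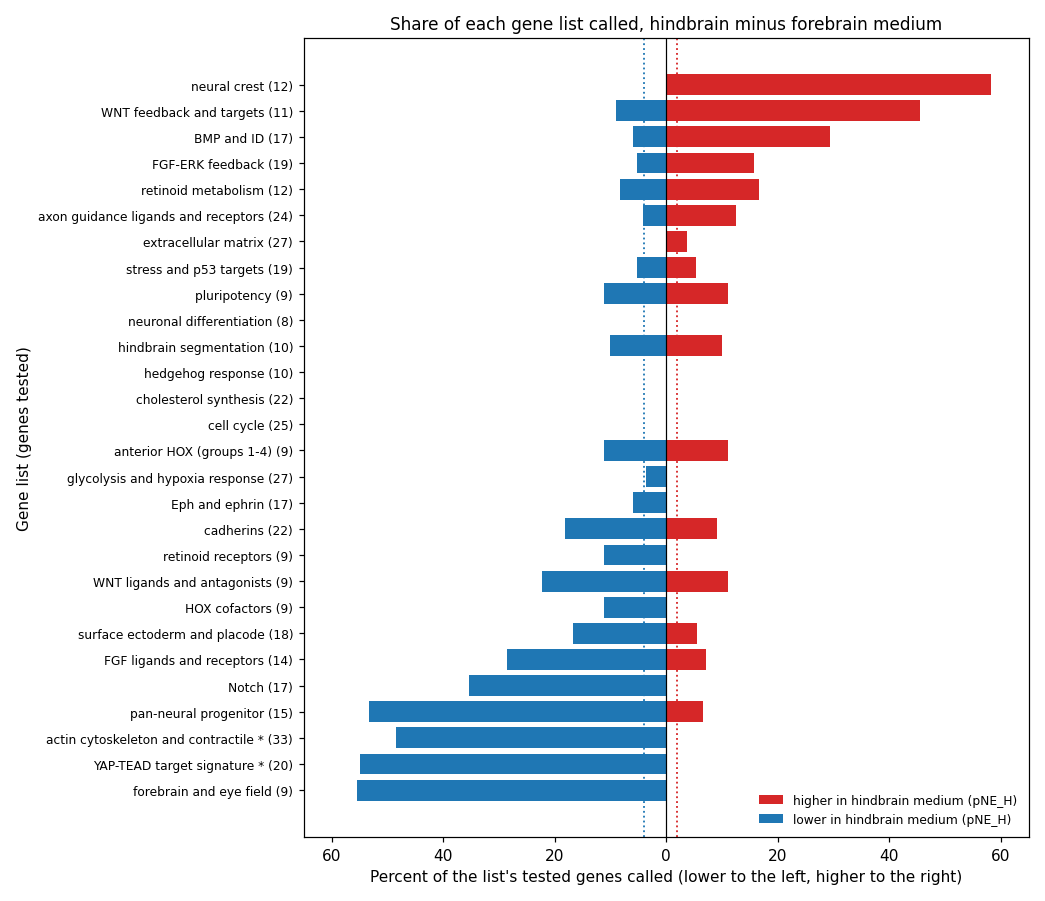
Percent of the tested genes of each list that were called higher (red, to the right) or lower (blue, to the left) in hindbrain than in forebrain medium, for the 28 lists with at least 8 genes tested; the number tested is in parentheses. Dotted lines are the shares over all tested genes, 1.99% higher and 4.03% lower. An asterisk marks lists chosen after values were seen. The other lists were chosen with earlier results of these data known, so no bar is independent evidence. Neural crest, WNT feedback and BMP genes reach farthest to the right, and forebrain, YAP-TEAD, pan-neural and contractile genes to the left. Their tested genes include some that passed the floor through 1 medium alone. Through hindbrain medium these were 3 neural crest, 1 WNT feedback and 1 BMP gene. Through forebrain medium they were 3 forebrain genes and 1 each of the YAP-TEAD, pan-neural and contractile genes.

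Whether the effect of the medium depended on the origin of the cells was tested as the difference between the 2 origins' hindbrain minus forebrain differences, which share no library. Origin and plating density changed together at day 4, so the 2 cannot be told apart. In cells of anterior origin, 964 of the same 14379 genes (6.70%) were called, 253 (1.76%) higher and 711 (4.94%) lower. The same call in both origins was made for 63 higher genes, 22.0% of the higher genes of posterior and 24.9% of those of anterior origin, and for 218 lower genes, 37.7% and 30.7%. Across genes, Pearson's r between the 2 differences was 0.40, as a description. The origin difference itself was called for 816 genes (5.67%), 479 (3.33%) above and 337 (2.34%) below 0, and for 337 of the 865 genes called in posterior origin (39.0%). The posterior difference is part of the origin difference, so the 39.0% is raised by that selection and cannot be set against 5.67%.

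Some WNT feedback, dorsal, forebrain and contractile genes differed the same way in both origins. LEF1 differed by 2.38 in posterior and 2.77 in anterior origin, RNF43 by 2.10 and 2.07, and MSX2 by 2.85 and 2.81. FEZF2 differed by -3.42 and -4.50, PAX6 by -2.46 and -2.06, and TAGLN by -1.87 and -1.92. None of these 6 genes had a called origin difference, although that of FEZF2, 1.08 ± 0.34 (SE; adjusted p = 0.0539), passed the fold threshold and missed only the threshold on the adjusted p. ID3, which rose in posterior origin, was at 428 and 432 against 512 and 507 TPM in anterior origin, an origin difference of 1.98 ± 0.13 (SE; adjusted p = 6.62e-07). PENK, near 0 in all 4 anterior libraries, gave an origin difference of 3.92 ± 0.28 (SE; adjusted p = 1.28e-06).

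Calls of opposite direction were made for 27 genes. NR2F1 fell in posterior origin and rose in anterior origin, from 0.659 and 0.422 TPM to 23.3 and 22.2 TPM, an origin difference of -5.77 ± 0.24 (SE; adjusted p = 8.56e-09). CALB2 rose there from 8.32 and 9.96 TPM to 32.9 and 29.7 TPM, an origin difference of -5.05 ± 0.30 (SE; adjusted p = 1.93e-07). CER1, a secreted inhibitor of NODAL, BMP and WNT, rose in posterior origin (1.59 and 0.717 against 11.8 and 15.2 TPM) and fell in anterior origin (8.69 and 10.6 against 2.64 and 3.38 TPM), an origin difference of 4.18 ± 0.33 (SE; adjusted p = 2.43e-06). LBH, a transcriptional regulator downstream of WNT, followed CER1, at 2.84 and 3.09 against 33.1 and 21.7 TPM in posterior and 21.7 and 20.6 against 7.18 and 7.02 TPM in anterior origin. For NR2F1 the hindbrain-medium libraries of the 2 origins lay close together, and the difference lay in the forebrain-medium libraries.

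**Figure D5:**
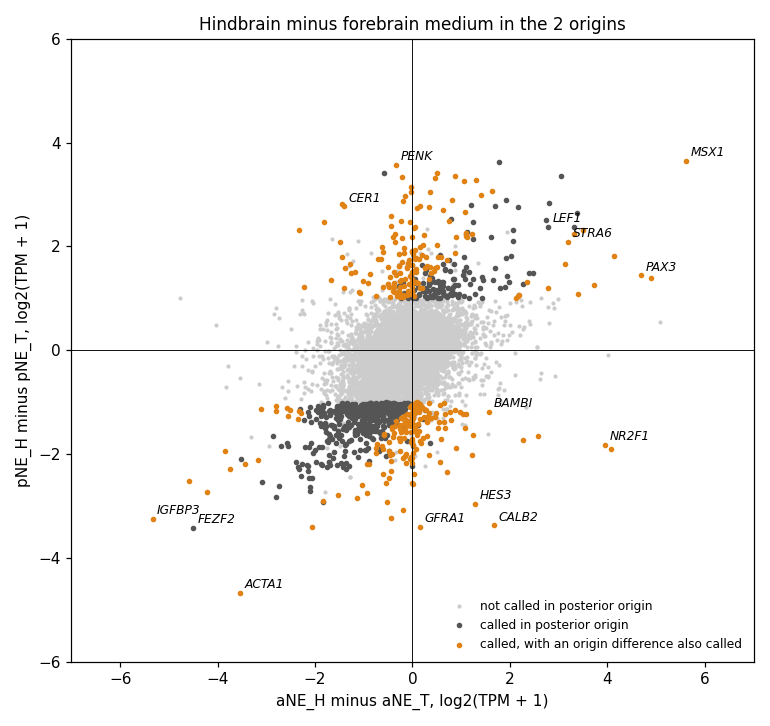
Difference between hindbrain and forebrain medium in log2(TPM + 1) for each of the 14379 tested genes, in cells of posterior origin (vertical axis) and of anterior origin (horizontal axis). Grey points were not called in posterior origin, dark points were called, and orange points were called there and also for an origin difference. NR2F1, CALB2, HES3 and BAMBI lie in the lower right, where the 2 origins go opposite ways, and MSX1 in the upper right.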

How the data were processed

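Poly-A RNA was sequenced in 18 libraries. The authors deposited a TPM table with 1 row per gene. Per the submitters' processing notes, bcl2fastq, FastQC, Trim Galore, kallisto, deepTools and the build hg38 were used. Versions, the annotation and use of strand are not given in the sources used here, so overlapping and antisense transcripts cannot be separated. TPM keeps no read counts, so no count model was run.

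Values were taken as log2(TPM + 1), a pseudocount of 1. limma 3.58.1 in R 4.3.3 was fitted to all 18 libraries with a mean for each of the 9 groups (9 residual degrees of freedom), with variances trended on mean level, two-sided tests and Benjamini-Hochberg adjustment over the 14379 genes. The procedure was tested on simulated data. Members and gene lists were chosen with earlier results of these data known. A few genes of the lists and marker panels are not reported here and were left out of the lists' counts, medians and sums. Named genes were list members with the largest called differences or that define the list, the 12 largest rises and 12 largest falls, and the 5 largest origin differences in each direction, limited to called genes with a symbol, no overlap of libraries and a mean of at least 5 TPM. Genes named outside this rule, among them GATA4, KDR, CCDC188BP, CCDC188, ZDHHC8, ID1, ID2 and the contractile and YAP-TEAD genes other than ACTA1, CCN1 and IGFBP3, were chosen after their values were seen. Alternatives changed the pseudocount, filter, scaling, libraries, replicate block, variance trend, call threshold and replicates.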

Additional observations from a re-analysis of the deposited data

Results flagged for a closer look

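The effect of hindbrain against forebrain medium differed between posterior and anterior origin for 74 of the genes named here, by limma's interaction (adjusted p under 0.05 and at least 1 on the log2 scale). Over all 14379 tested genes it was called for 816 (5.67%). Named genes were picked partly for large posterior or origin differences, so the 74 cannot be set against that share. Values below are posterior minus anterior. Plating density changed with origin, and its part was not tested.

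Several genes were near 0 in all 4 anterior day-4 libraries, so their origin difference is close to the posterior difference: HOXB1 (1.27), HOXB3 (1.10), HOXD4 (-2.56), HOXA5 (1.13), EGR2 (1.42), CYP26B1 (-1.89), PENK (3.92), C1QL4 (3.18), SLC5A7 (3.08) and ZDHHC8BP (3.55), with its overlapping neighbour CCDC188BP (2.62) and the parent gene CCDC188 (1.52). Others were under 8 TPM in the anterior day-4 libraries and not called there: PAX2 (1.80), PAX8 (2.72), CDX2 (1.49), NKX6-1 (1.53), VAX2 (-2.41), SFRP5 (2.86), TMEM229A (2.91), MAFA (2.49), PROC (-2.80) and ADAMTSL4 (-2.88).

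A second set changed in both origins in the same direction but by different amounts. The anterior change was larger for STRA6 (-1.11), MSX1 (-1.96), PAX3 (-3.25), BMP5 (-1.18), TWIST1 (-1.46), DLL1 (1.92), SOX2 (1.02), IGFBP3 (2.09) and FGF8 (1.99). The posterior change was larger for SPRY4 (1.07), SOX10 (1.96), SOX8 (1.59), SEZ6L (2.21), FREM1 (1.44), SOX21 (-1.34), ACTA1 (-1.14) and CCN1 (-1.06).

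Other genes met both parts of the call rule in posterior origin alone, which does not mean that they were unchanged in anterior origin. The origin difference was 1.30 for TNFRSF19, 1.98 for ID3, 1.90 for IL17RD, 1.63 for FABP7, 2.49 for FN1, 1.82 for GATA4, 1.73 for UNC5C, 1.48 for KDR and 2.09 for PCDH10 among the rises. Among the falls it was -1.22 for FGFR3, -1.66 for FGF13, -1.15 for DTX4, -2.05 for POU3F1, -1.26 for EPHA7, -1.18 for TEK, -3.56 for GFRA1, -2.41 for ADCY2, -1.04 for ATF3, -1.97 for CCN2, -2.37 for MYOF and -1.30 for ANKRD1. In anterior origin TNFRSF19 (0.89), PCDH10 (0.62), FGFR3 (-0.62), DTX4 (-0.74), ATF3 (-0.59), CCN2 (-0.48) and ANKRD1 (-0.61) moved the same way. FN1 (-0.59), KDR (-0.46), FGF13 (0.31) and IL17RD (-0.27) moved the opposite way there. These anterior differences had limma's adjusted p under 0.05 and lay under the fold threshold.

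The 5 largest origin differences in each direction that the naming rule gave were MUSTN1 (-5.98), NR2F1 (-5.77), CALB2 (-5.05), WLS (-4.54) and HES3 (-4.25) below 0, and RNA5SP428 (4.28), LBH (4.26), CER1 (4.18), PENK and CHGA (3.62) above 0. MUSTN1 was at 8.26 and 7.15 TPM in forebrain and 0.905 and 1.83 TPM in hindbrain medium in posterior origin, and at 0.328 and 0.650 against 21.5 and 26.6 TPM in anterior origin. WLS, which carries WNT ligands to the cell surface, was at 162 and 139 against 204 and 234 TPM in posterior origin, and at 5.76 and 7.03 against 251 and 246 TPM in anterior origin. CHGA, a secretory granule protein, was at 138 and 163 against 294 and 241 TPM in posterior origin, and at 53.2 and 52.3 against 7.12 and 6.41 TPM in anterior origin. RNA5SP428, a pseudogene of 5S RNA, was at 4.01 and 0 against 8.39 and 15.4 TPM, with 1 library at 0 in forebrain medium; it shares sequence with other copies and its value is uncertain. BAMBI (-2.76) also went opposite ways. ID1 (1.58), GBX2 (-1.87), ZNF503 (-1.64) and ZNF703 (-1.99) had a called origin difference without a call in posterior origin.

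Leaving out 1 library ended some of these calls, by the adjusted p or by the fold threshold. Without the first pNE_H library the origin difference was -0.91 for ANKRD1, -0.80 for CCN1, -0.75 for ATF3 and 0.92 for SOX2. Without the second aNE_H library it was 0.88 for SOX2, -0.97 for ATF3 and 1.60 for FGF8, and FGF8 was also lost without the first aNE_T library (1.86). HOXB3 was at 0.98 without the first pNE_T and 0.97 without the first aNE_T library. Without the second aNE_T library TWIST1 was at -1.30 (adjusted p = 0.0537). CCDC188 was lost without the first aNE_H (1.24) or aNE_T library (1.34). CDX2 was lost without any 1 of 3 libraries (1.12 to 1.34), namely the second pNE_H, the first pNE_T and the second aNE_H. DLL1 (1.75 to 1.82) and EGR2 (1.13 to 1.35) were lost without any 1 of 4 libraries, namely the second pNE_H, pNE_T and aNE_H and the first aNE_T library for DLL1 and the first pNE_H, pNE_T and aNE_T and the second aNE_H library for EGR2. FREM1 (1.16 to 1.55) was lost without any 1 of the 8 libraries but the first aNE_T, HOXA5 (0.82 to 1.15) without any but the second pNE_T, and RNA5SP428 (3.12 to 4.34) without any but the first pNE_H and the first pNE_T. A pseudocount of 0.1 ended the call, at adjusted p-values of 0.0513 to 0.15, for HOXB1, HOXB3, CYP26B1, NKX6-1, TNFRSF19, SFRP5, SOX21, TMEM229A, PROC, CCDC188BP and GATA4, and quantile normalization that of BMP5 (-0.90).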

How the results depend on the processing

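No gene called between the media changed direction under the alternatives run, and 105 of the 114 named genes called there kept their call under each of them; the exceptions were HOXA5, EGR2, RNA5SP428, FGF8, ACTB, SOX1, KDR, APCDD1 and FGF18. For the origin difference 49 of 74 kept it. Calls by adjusted p alone gave 3237 genes (1199 higher, 2038 lower) between the media and 1896 (889 higher, 1007 lower) for the origin difference, because the fold threshold was dropped. A floor of 5 TPM left 186 higher genes of 610 called, from fewer genes tested. The other alternatives gave 810 to 1055 genes between the media and 714 to 915 for the origin difference, and quantile normalization moved the higher share from 33.1% to 42.4%. Leaving out 1 library gave 862 to 889 genes (284 to 312 higher, 550 to 604 lower) and 705 to 801 (395 to 491 higher, 298 to 351 lower), with the lone library assumed to vary like the other groups. The replicate numbers did not pair the samples: the correlation of same-numbered deviations was -0.03 between the media and -0.15 to 0.12 over 36 pairs of groups. With the replicate block, 871 genes were called between the media and 819 for the origin difference. Each group holds 2 libraries and depth is unknown, which limits genes near 1 TPM.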

Other observations

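Markers of other cell types moved with the medium in part, and their part in the differences above was not tested. CDH5, a cadherin of blood vessels, was at 22.8 and 23.3 TPM in forebrain medium and 5.86 and 6.50 TPM in hindbrain medium (-1.75 ± 0.16), and TEK, an endothelial receptor, at 18.9 and 20.2 against 6.99 and 8.68 TPM (-1.23 ± 0.13). KDR, a receptor for VEGF, went the other way, from 1.19 and 1.05 TPM to 2.85 and 3.81 TPM (1.02 ± 0.15), so that of the 3 genes tested of 8 in the endothelial and blood list, 2 fell and 1 rose. The KDR call was lost without the second library of either medium (0.86 and 0.97). At day 2 KDR had been at 20.9 and 17.6 TPM, above both media. PECAM1, which defines endothelium, was at 0.121 and 0.0412 against 0.579 and 0.309 TPM. Of the mesoderm and endoderm list 6 of 18 genes were tested and 2 rose: GATA4, from 0.595 and 1.03 TPM to 6.59 and 5.63 TPM (1.98 ± 0.22), and FOXC1, from 5.30 and 4.83 TPM to 19.6 and 16.7 TPM (1.65 ± 0.16). The 5 mesoderm markers summed to 0.4 to 1.5 TPM in all 4 libraries. KRT19, a keratin, fell from 207 and 217 TPM to 105 and 80.3 TPM (-1.20 ± 0.14), 1 of 3 falls (16.7%) beside 1 rise (5.56%) among 18 surface ectoderm and placode genes tested.

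Some genes of cell contact and axon guidance were called, against 1.99% higher and 4.03% lower over all tested genes. Among 22 cadherins tested, PCDH10 rose from 1.74 and 0.865 TPM to 15.4 and 12.3 TPM (2.71 ± 0.22) and CDH13 fell from 17.3 and 13.3 TPM to 4.66 and 4.87 TPM (-1.49 ± 0.22); 2 rose (9.09%) and 4 fell (18.2%) in all. Among 24 guidance genes tested, 3 rose (12.5%) and 1 fell (4.17%): the netrin receptor UNC5C rose from 13 and 13.2 TPM to 35.6 and 41.7 TPM (1.49 ± 0.19), and the ligand NTN1 fell from 8.78 and 9.52 TPM to 2.28 and 2.27 TPM (-1.63 ± 0.14). EPHA7 was the only call among 17 Eph and ephrin genes tested (5.88%), at 39.2 and 38.3 against 12.8 and 14.8 TPM (-1.43 ± 0.18).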
